A study of Capra hircus with 6 samples.

Results

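The longest annotated genes of the goat transcriptome were compared between ear fibroblasts before induction (CK group, day 0) and cells collected after 8 days in induction medium (5i8d group). A gene was selected by its length and its counts. It had an annotation ID, a length of at least 10000 bp and a count above 0 in all 6 libraries. This held for 360 genes, which are 1.76% of the 20484 annotated genes and belong to the 24950 features of the count table. The fibroblasts were isolated from the ears of Guanzhong dairy goats 2 to 3 months old, and both groups came from such cells. The induction medium, BFRTV in the labels and 5i in the paper, held Forskolin, TTNPB, VPA, Repsox and Tranylcypromine, and the day 8 cultures carried primary colonies. The labels call them induced mammary epithelial cells. Each group had 3 libraries, CK1 to CK3 and 5i8d1 to 5i8d3 (i58d1 to i58d3 in the labels), of rRNA-depleted total RNA. The paper describes 2 libraries of each group, so the main values are also given for CK1, CK2, 5i8d1 and 5i8d2 alone. The IDs are not paired with gene names, so the cell types could not be checked against marker genes, and the long genes are described by their length and by a few IDs.

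As background, the length of a mature transcript is set by its coding sequence and its untranslated regions. Very long transcripts often encode large structural proteins of the extracellular matrix or the cytoskeleton, or carry long 3′ untranslated regions. Fibroblasts are known for secreting matrix proteins, and epithelial cells for junctions and a keratin cytoskeleton. In sequencing of fragmented RNA a long transcript gives more reads than a short one at the same number of molecules. FPKM, a level divided by gene length and library total, corrects for this, but the number of reads behind the level still grows with length. In bulk RNA, fewer cells of a type and less RNA per cell cannot be told apart.

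The lengths of these genes were concentrated just above the limit. The shortest had 10001 bp, the median was 12059 bp, and 75% of them were no longer than 13785 bp. Of the 360 genes, 176 lay between 10000 and 12000 bp, 123 between 12000 and 15000 bp, and 61 had 15000 bp or more. The longest had 113500 bp. The length is the one the authors used for the FPKM, and the sources used here do not give whether it covers all exons of a gene or 1 transcript. Around the limit, the 5 genes just inside ran from 10001 to 10035 bp with a mean FPKM of 1.67 to 18.9 and log2 fold changes between -0.95 and 3.07. The 5 just outside ran from 9943 to 9995 bp, with a mean FPKM of 0.869 to 24.0 and log2 fold changes between -1.18 and 2.50. Another 41 annotated genes were long enough but lacked a count in at least 1 library. Of these, 9 had no count in any CK library and 4 had none in any 5i8d library. Together they took at most 0.00953% of the counts of a library. Only 16 of them were tested below, of which 10 were called higher and 3 lower. Higher calls also outnumbered lower ones over all features tested, with 18.9% and 11.2%. A gene without a count in any CK library could only have been called higher, and one without a count in any 5i8d library only lower. Such genes were only a part of the 41, and the calls were not split by this. The highest mean count among the 41 was 616, so not all of the genes left out were rare. Detection in all 6 libraries was reached by 89.8% of the annotated genes of at least 10000 bp and by 80.2% of those between 2000 and 5000 bp. The 7110 genes of the latter range that were detected in all 6, with a median length of 3189 bp, are called shorter genes below.

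The libraries held 28162284 to 37544673 counts, and CK3 was the shallowest. CK1 and CK2 were closely alike, whereas CK3 stood apart from both, as did 5i8d3 from its group over the shorter genes, of which 26.8% and 17.2% differed by 2-fold or more from 5i8d1 and 5i8d2, against 6.46% between the latter. Among the 360 long genes, 0 differed by 2-fold or more between CK1 and CK2, while 55 did between CK1 and CK3 and 54 between CK2 and CK3. Within the 5i8d group, 45 long genes differed by this much between 5i8d1 and 5i8d2, 55 between 5i8d1 and 5i8d3, and 34 between 5i8d2 and 5i8d3. Across the groups, any CK library differed from any 5i8d library at 130 to 213 long genes. Spearman's rho of the levels across the long genes, which are not independent replicates, was 0.92 to 1.00 within the groups and 0.75 to 0.82 across them. Between CK1 and CK3 a difference of this size was found at 27.9% of the shorter genes and at 15.3% of the long genes.

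The long genes had no uniform shift in level. Their median FPKM was 8.39, 8.63 and 8.77 in CK1 to CK3, and 8.48, 6.21 and 7.20 in 5i8d1 to 5i8d3. The groups overlapped, with 5i8d1 above CK1. The shorter genes had a median FPKM of 6.46, 6.62 and 4.52 in CK1 to CK3 and of 7.40, 7.16 and 5.57 in 5i8d1 to 5i8d3, which also overlapped. The ends of the distribution of the long genes moved in opposite directions. The 25th percentile of FPKM increased from 1.77 ± 0.083 at day 0 to 2.60 ± 0.54 at day 8, and the 75th percentile went from 18.7 ± 1.8 to 15.1 ± 1.0 (SD, n = 3 each). Neither of these percentiles overlapped between the groups. In each CK library 280 long genes had an FPKM of 1 or more, as had 307, 303 and 294 in 5i8d1, 5i8d2 and 5i8d3. The low end of the shorter genes was higher after induction as well, with a 25th percentile of 1.55 ± 0.43 before and 2.20 ± 0.54 after it and an FPKM of 1 or more at 79.4% and 84.3% of them (means, n = 3 each), but these values overlapped between the groups. The upper end of the shorter genes had a 75th percentile of 15.1 ± 1.5 before and 16.3 ± 0.9 after induction, which overlapped too. By reads, the median long gene had 3111 to 3700 counts in a CK library and 2867 to 3776 in a 5i8d library, while the median shorter gene had on average 617 counts at day 0 and 785 at day 8.

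The long genes took a smaller share of all counts after induction. It was 10.04%, 9.57% and 9.99% in CK1 to CK3 and 6.998%, 5.72% and 6.35% in 5i8d1 to 5i8d3. The groups did not overlap, and the means were 9.87 ± 0.26% and 6.35 ± 0.64% (SD, n = 3 each), which differed by -3.52 percentage points. In the libraries of the paper alone the means were 9.81% and 6.36%. The share was a description of genes chosen with earlier results known, and 3 against 3 libraries could not have reached a p below 0.1. The shorter genes took 37.2 ± 0.8% of the counts before and 39.7 ± 2.0% after induction (SD, n = 3 each), and these shares overlapped.

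**Figure D1:**
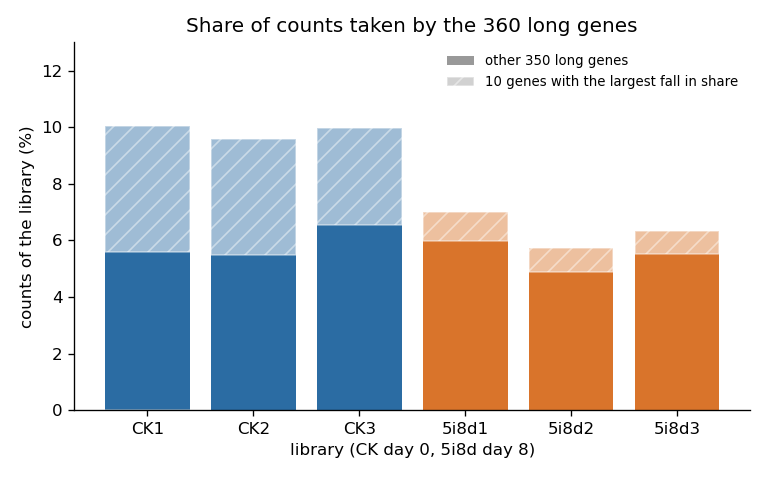
Percent of the counts of each library taken by the 360 long genes, blue for CK and orange for 5i8d. The hatched part belongs to the 10 genes whose mean share fell most and the solid part to the other 350. The whole bars fall from 9.57% to 10.04% before induction to 5.72% to 6.998% after it, whereas the solid parts overlap.

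A small number of abundant genes held most of this fall. Picked by the size of the fall, 10 long genes took 4.46%, 4.09% and 3.45% of the counts in CK1, CK2 and CK3, and 1.03%, 0.848% and 0.822% in 5i8d1, 5i8d2 and 5i8d3. The other 350 genes took 5.59%, 5.49% and 6.54% in the CK libraries and 5.97%, 4.87% and 5.52% in the 5i8d libraries, which overlap. Taking out genes picked for their fall had to shrink the difference, from -3.52 to -0.42 points. Without these 10 and the 10 genes of the largest gain it was -1.01 points. Over all 360 genes, the mean share fell for 203 and increased for 157, by sums of -4.72 and 1.21 percentage points, and the 10 genes made up 65.6% of the former. The fall was not spread evenly over lengths. The genes of 12000 to 15000 bp took 3.81% to 4.39% of the counts in the CK libraries and 1.85% to 2.34% in the 5i8d libraries. Those of at least 15000 bp took 2.83% to 3.06% and 1.62% to 1.81%. Those of 10000 to 12000 bp took 2.62% to 3.12% and 2.25% to 2.86%, and overlapped.

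The most abundant long gene, of 19432 bp, had an FPKM of 698, 647 and 632 in CK1, CK2 and CK3 and of 159, 127 and 133 in 5i8d1, 5i8d2 and 5i8d3. All CK libraries were far above all 5i8d libraries. This gene alone took 1.28% of the counts at day 0 and 0.271% at day 8, and its log2 fold change was -2.41 ± 0.27 (standard error; edgeR quasi-likelihood test, adjusted p = 0.00084). A gene of 12021 bp had the next largest fall in share, with an FPKM of 776, 691 and 482 in the CK libraries and of 92.5, 69.3 and 56.0 in the 5i8d libraries. A gene of 14967 bp had 462 and 406 in CK1 and CK2 but only 155 in CK3, against 112, 73.0 and 39.6 in the 5i8d libraries, so that CK3 lay much nearer to the induced cells. By contrast, a gene of 12564 bp was even within each group, with an FPKM of 282, 285 and 357 in the CK libraries and of 38.3, 37.3 and 46.6 in the 5i8d libraries. The steepest fall of the 10, with a log2 fold change of -3.73, was that of a gene of 13614 bp, with 105, 111 and 111 in the CK libraries and 11.3, 8.41 and 8.07 in the 5i8d libraries. These 10 genes were picked by their fall in the same libraries. Lower calls among them were therefore likely beforehand and give no separate support. Of the 10 genes, 9 were called lower over the 6 libraries and all 10 over the 4 of the paper. The exception was a gene of 31774 bp with an FPKM of 83.2, 79.4 and 103 before and 44.0, 55.2 and 64.9 after induction, and an adjusted p of 0.068 from the same test (0.029 over the 4 libraries). With the replicate number as a block all 10 were called, this gene with an adjusted p of 0.0047.

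Gains in share were smaller in sum and were shared more evenly, with 0.59 of the 1.21 points in the 10 largest. The 10 long genes with the largest gain took 0.314%, 0.306% and 0.324% of the counts in CK1 to CK3 and 0.920%, 0.849% and 0.953% in 5i8d1 to 5i8d3. Of these, 6 were called higher over the 6 libraries, 9 over the 4 and all 10 with the block. As they were picked by their gain in the same libraries, higher calls among them were likely beforehand too. The largest gain in share was that of a gene of 12173 bp, with an FPKM of 9.95, 11.4 and 13.4 in the CK libraries and of 88.5, 124 and 143 in the 5i8d libraries. Its groups lay well apart. A gene of 21832 bp went from 4.190, 4.204 and 7.67 to 29.0, 32.7 and 59.1, with CK3 and 5i8d3 each the highest library of its group. A gene of 10431 bp had the highest FPKM of any long gene in 5i8d1 and 5i8d2, 274 and 209, but 135 in 5i8d3 and 118, 108 and 62.9 in the CK libraries, and was not called over the 6 libraries (adjusted p = 0.079 in this edgeR test, 0.026 over the 4 and 0.0030 with the block).

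Differential expression of the long genes was then examined. edgeR's quasi-likelihood test was run on the counts of all features after TMM scaling, which adjusts library sizes for composition. The main fit took the group as its only factor and did not use the replicate numbers. A feature was called at a Benjamini-Hochberg adjusted p under 0.05 over all 17757 features tested. Of the 360 long genes, 356 were tested, and the 4 left out had at most 38 counts in the 6 libraries together. In the 5i8d group 68 long genes were higher and 90 were lower, which are 18.9% and 25% of the 360. Of all features tested, 18.9% were called higher and 11.2% lower. In this fit the share of higher calls was at the background, while that of lower calls was above it. Among the shorter genes, 1100 (15.5%) were higher and 775 (10.9%) lower. Over the 4 libraries of the paper 75 long genes (20.8%) were higher and 104 (28.9%) lower, against 24.5% and 17.1% of all features called in these directions. All 68 genes called higher over the 6 libraries and 81 of the 90 called lower were also called over the 4, which are part of the 6. With the replicate number as a block, 79 (21.9%) were higher and 151 (41.9%) lower, against 26.7% and 21.0% of all features. In both of these fits the share of higher calls was below that of all features, and the share of lower calls above it. DESeq2 called 71 (19.7%) higher and 114 (31.7%) lower, against 22.0% and 15.3% of all features. The number of lower calls depended on single libraries. Without 5i8d2 there were 59 higher calls (16.4%) and 50 lower calls (13.9%), against 13.4% and 6.26% of all features. Without CK1 there were 52 (14.4%) and 58 (16.1%), against 12.4% and 6.49%.

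The groups were also compared by whether their libraries overlapped. In CPM (counts relative to the TMM-scaled library size), 79 long genes (21.9%) were higher in every 5i8d library than in every CK library and 135 (37.5%) were lower in every one. Of all features tested, 26.4% and 19.7% were separated in these directions, and of the shorter genes 23.5% and 19.5%. For falls the share of long genes was thus above both of these. For rises it was near that of the shorter genes. It was below that of all features tested, some of which had no count in a library. The median log2 fold change of the 356 long genes tested was -0.33, with a middle range from -1.01 to 0.39, and 231 of them (64.9%) were negative. The median over all features tested was 0.04, and over the shorter genes it was -0.03. Scaled by the library totals alone, the median of all features moved by 0.17 to 0.21, that of the long genes was -0.17, and 73 long genes (20.3%) were called in each direction, against 21.0% of all features called higher and 8.90% called lower. Relative to all features the long genes stood at -0.37 with TMM and -0.39 with the totals. The median was -0.27 over the libraries of the paper, -0.16 without CK3 and -0.47 without 5i8d1.

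The long genes called higher had changes of larger size than those called lower, as had all features. The median log2 fold change was 2.60 for the 68 genes called higher and -1.60 for the 90 called lower. It was 3.21 and -1.99 for the calls over all features, and 2.35 and -1.73 for those among the shorter genes. A change of 16-fold or more was found for 14 of the higher and for 4 of the lower genes, which are 3.89% and 1.11% of the 360, against 7.51% and 1.46% of all features. All features include some without a count in a library, whereas the shorter genes were held to the same rule on detection. Of the 7110 shorter genes, 220 and 53 changed this much. This was only a little less than the part of the long genes, which rests on few genes, and the difference was not tested. By the thresholds of the paper, where p before adjustment is under 0.05 and the log2 fold change reaches 2 in size, 43 long genes (11.9%) were upregulated and 32 (8.89%) downregulated, against 14.1% and 6.18% of all features. Of the 7110 shorter genes, 661 and 346 passed them, a smaller part in both directions.

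The gene with the largest rise among those with a mean of at least 50 counts was gene7297, of 14790 bp. It had 131, 153 and 82 counts in CK1, CK2 and CK3 and 18816, 17402 and 14519 in 5i8d1, 5i8d2 and 5i8d3. The 5i8d libraries were close to each other and all CK libraries were low. Its FPKM increased from 0.248 ± 0.048 to 31.5 ± 3.9 (SD, n = 3 each), with a log2 fold change of 6.82 (standard error 0.28; edgeR quasi-likelihood test, adjusted p = 9.46e-05). The next was gene1951, of 15446 bp, with 6, 6 and 5 counts in the CK libraries and 687, 713 and 780 in the 5i8d libraries. It went from near the limit of detection to an FPKM of 1.30 ± 0.11 (SD, n = 3), and its log2 fold change was 6.67 (standard error 0.36; same test, adjusted p = 9.99e-05).

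The largest fall was that of gene17317, of 12970 bp, with 9852, 7807 and 2636 counts in CK1 to CK3 and 292, 92 and 93 in 5i8d1 to 5i8d3. The groups did not overlap, but CK3 was well below the other CK libraries and 5i8d1 above the other 5i8d libraries. Its log2 fold change was -5.65, with a larger standard error (0.67) than for the genes that rose and an adjusted p of 0.0011 in the edgeR test. A more uniform fall was that of gene4634, of 12397 bp, with 2118, 2236 and 1672 counts in the CK libraries and 72, 90 and 84 in the 5i8d libraries. Its FPKM was 4.93 ± 0.16 before and 0.182 ± 0.017 after induction (SD, n = 3 each), and its log2 fold change was -4.92 (standard error 0.26; same test, adjusted p = 9.99e-05). Over the libraries of the paper the log2 fold changes of these 4 genes were 6.78, 6.62, -5.73 and -4.97. They were called with the same direction under every alternative that could test them. The longest gene of all, of 113500 bp, was rare in every library. It had 316, 294 and 415 counts in the CK libraries and 1394, 1167 and 1369 in the 5i8d libraries, an FPKM of 0.0944 ± 0.0309 and 0.319 ± 0.039 (SD, n = 3 each), and its log2 fold change was 1.57 (standard error 0.35; edgeR quasi-likelihood test, adjusted p = 0.014).

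**Figure D2:**
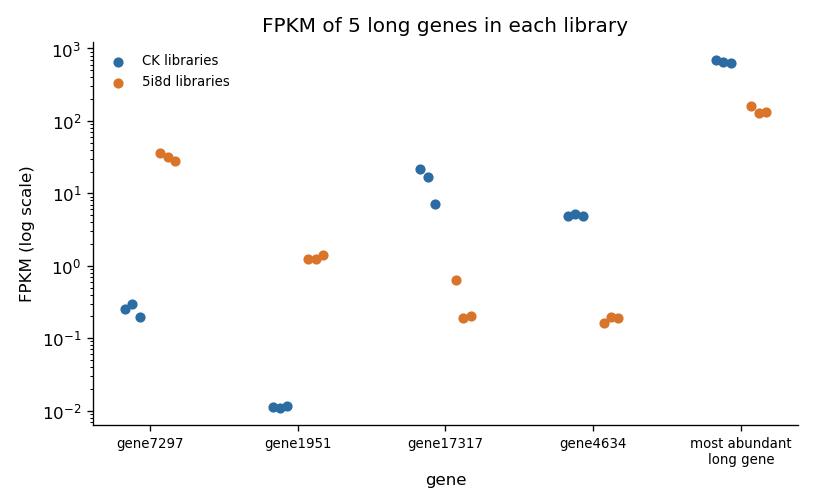
FPKM, on a log axis, of gene7297, gene1951, gene17317, gene4634 and the most abundant long gene in each CK library (blue) and each 5i8d library (orange). The first 2 are higher in all 5i8d libraries and the other 3 lower in all of them, and the CK points of gene17317 are spread from 7.22 to 21.8.

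The direction of change differed along the range of expression. The 360 genes were divided into 4 classes of 90 by their mean FPKM. In the lowest class, with a mean FPKM of up to 2.85, 35 genes were called higher and 21 lower. In the next, 19 were higher and 18 lower. Among the genes with a mean FPKM from 8.64 to 18.0 only 7 were higher and 28 lower, and in the highest class, from 18.1 to 399, 7 were higher and 23 lower. Of all features tested, at any level, 18.9% were called higher and 11.2% lower. The median log2 fold change went from 0.16 in the lowest class, over the 86 genes tested there, to -0.18, -0.58 and -0.52. Over the libraries of the paper these medians were 0.63, 0.02, -0.46 and -0.41. Across the 356 genes, which share the same libraries, Spearman's rho of mean FPKM and log2 fold change was -0.23. From a mean FPKM of 0.3 upward, a decline with level was not particular to the long genes. From 0.3 to 1 the median log2 fold change was 1.81 for the 23 long genes, their highest of any bin, and 0.26 for the shorter genes. Below 0.1 it was -0.11 for long and 0.43 for shorter genes, and from 0.1 to 0.3 it was -0.09 and 0.19. From 1 to 3 it was 0.10 and 0.17. At 30 and over it was -0.87 and -0.14.

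**Figure D3:**
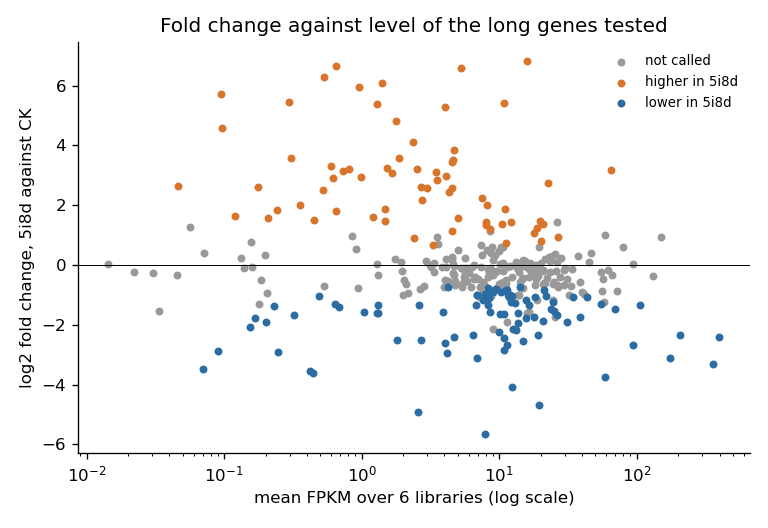
Log2 fold change of the 356 long genes tested (y axis) against their mean FPKM over the 6 libraries (x axis, log scale), with genes called higher in orange, lower in blue and not called in grey. Most orange points lie at a low FPKM and the 4 genes of the highest mean FPKM are all blue.

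To compare long and shorter genes at like levels, both were placed in the same bins of mean FPKM. In the bin from 0.3 to 1, 56.5% of the 23 long genes were called higher and 26.1% lower, against 23.8% and 12.5% of the 602 shorter genes. From 1 to 3 these were 42.9% and 22.9% of 35 long genes against 23.8% and 9.49% of 1001 shorter genes. From 10 to 30 they were 10.4% and 28.0% of 125 long genes against 12.1% and 11.9% of 1936 shorter genes. At an FPKM of 30 and over, 2.78% of the 36 long genes were higher and 36.1% lower, against 13.3% and 17.1% of 848 shorter genes. The percentage called was above that of the shorter genes in every bin, whereas the percentage called higher was below it in the bins from 10 upward. These differences are described without a test. With the bins of the shorter genes weighted by the numbers of long genes, 43.9% of the long and 24.9% of the shorter genes were called, a difference of 19.0 percentage points. For lower calls the percentages were 25% and 10.6%, and for higher calls 18.9% and 14.3%. Over the libraries of the paper the higher calls were 20.8% and 19.1%, and with the replicate block they were 21.9% and 22.6%, so that the sign of this difference turned. The lower calls were 28.9% and 17.7% over the 4 libraries, and 41.9% and 22.0% with the block. The weighted median log2 fold changes were -0.24 and -0.00067. Over the libraries of the paper 49.7% and 36.8% were called, a difference of 12.9 points, and without CK3 the difference was 12.1 points.

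**Figure D4:**
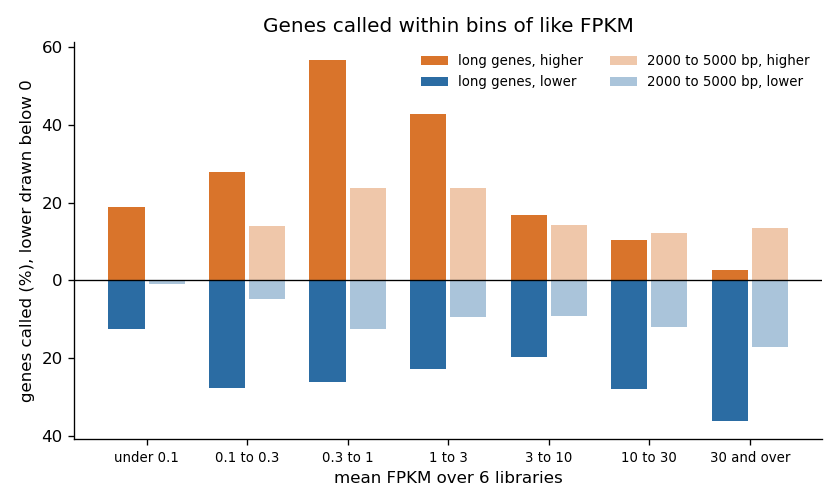
Percent of genes called higher (orange, above 0) and lower (blue, below 0) in the 5i8d group within bins of mean FPKM, for long genes (full colour) and for genes of 2000 to 5000 bp (pale). The orange bar of the long genes is tallest from 0.3 to 1 (56.5%) and shortest at 30 and over (2.78%), where their blue bar is longest (36.1%).

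Reads per gene moved with this comparison. In the bin from 3 to 10 FPKM the median long gene had a mean count of 2709 and the median shorter gene 642, and the median standard errors of the log2 fold change were 0.29 and 0.36. In bins of mean count in place of FPKM, 43.9% of the long and 28.1% of the shorter genes were called, so that the difference was 15.7 points at like counts. There, 25% of the long and 14.3% of the shorter genes were lower.

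Fold changes were also ordered by length over all annotated genes detected in the 6 libraries. The median log2 fold change was 0.34 for genes of 200 to 1000 bp, 0.12 for 1000 to 2000 bp, -0.03 for 2000 to 5000 bp, -0.15 for 5000 to 10000 bp, -0.25 for 10000 to 12000 bp and -0.48 for 12000 to 15000 bp. The 61 genes of at least 15000 bp did not continue this order, with -0.20. Lower calls made up 25.5% of the calls in the shortest of these classes and 41.3% from 2000 to 5000 bp. They made up 56.6% from 10000 to 12000 bp, 63.6% from 12000 to 15000 bp and 44.4% from 15000 bp. In the last class 15 genes (24.6%) were higher and 12 (19.7%) lower. Over all features tested lower calls made up 37.1% of the calls, with 18.9% of the features higher and 11.2% lower. Spearman's rho of length and log2 fold change was -0.11 across 14157 annotated genes and -0.03 across the 356 long genes.

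The order by length was not the same in each library. For each gene, log2(FPKM + 0.1) was set against its mean over the 6 libraries, and the median was taken over a length class. The long genes minus the shorter genes then gave 0.01 in CK1, -0.01 in CK2 and 0.47 in CK3, and -0.11 in 5i8d1, -0.39 in 5i8d2 and -0.0022 in 5i8d3. CK3 and 5i8d2 were thus at the ends, and the other CK and 5i8d libraries were close to each other. In CK3 the genes of 200 to 1000 bp had a median of -0.52 and those of 12000 to 15000 bp of 0.21, whereas 5i8d2 had 0.45 and -0.30. At like FPKM the median level of the long genes minus that of the shorter genes was -0.02, -0.06 and 0.49 in CK1 to CK3 and 0.0040, -0.28 and 0.02 in 5i8d1 to 5i8d3. The groups overlapped, and the difference between the group means was -0.22 on the log2 scale, with -0.05 to -0.32 when 1 library was left out. The lowest size was reached without CK3. The difference was thus no larger than the spread between libraries of a group (pooled SD 0.25). The part of the shift of single libraries in the medians and calls given above was not tested.

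**Figure D5:**
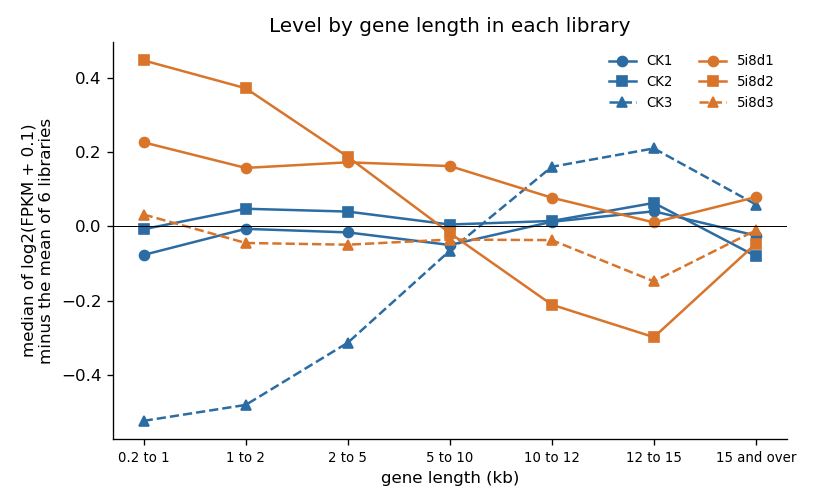
Median over the annotated genes of each length class (x axis, kb) of log2(FPKM + 0.1) minus the mean of the gene over the 6 libraries (y axis), 1 line per library, CK in blue and 5i8d in orange, dashed for CK3 and 5i8d3. CK3 runs from -0.52 in the shortest class to 0.21 at 12 to 15 kb and 5i8d2 from 0.45 to -0.30, while CK1 and CK2 stay near 0.

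Long genes were more frequent among the annotated genes with most reads than among those of highest level. Reads grow with length at the same level, so this was likely beforehand for genes picked by length. Of the 200 annotated genes with the highest mean count 25 were long genes, and of the 200 with the highest mean FPKM 2 were. The long genes made up 1.76% of all annotated genes.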

How the data were processed

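The authors made libraries from rRNA-depleted total RNA with a directional kit and deposited counts of reads per feature and the FPKM made from the same counts. The tools listed in the submitters' processing notes are HTSeq, FastQC 0.10.1 and DESeq2 1.16.1. Aligner, genome build and strand setting were not given in the sources used here, so overlapping or antisense features may share reads. Length was computed as count × 1e9 / (FPKM × library total), a whole number within 8.7e-10 bp in every library. 0 IDs matched the reference gene table. No sequence could therefore be assigned, and planned marker and gene lists were not analysed here.

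The long genes and the lists were chosen with earlier results of these data known. Counts of all features were fitted with R 4.3.3 and edgeR 4.0.16 (filterByExpr, TMM, quasi-likelihood test, Benjamini-Hochberg). Standard errors were obtained as the size of the log2 fold change over the square root of the F statistic. DESeq2 1.42.0, limma 3.58.1 on log2(FPKM + 0.1) and log2(FPKM + 1), other scalings, filters and libraries were alternatives. The script of this test was also run on simulated data with known changes. The genes named by ID are the 2 per direction with the largest fold changes among those called, with 50 or more counts on average and groups that do not overlap. The longest gene and that of the highest mean FPKM are described for these properties, as planned, and the other genes described by length were picked by their share of counts after the values were seen. The study's methods use 2 libraries of each group, and all 6 were used here for the main comparison. Pairing was checked by the correlation of deviations from the group means over 17757 features, which was 0.42, 0.55 and 0.67 for libraries of the same number. CK1 and 5i8d2 gave 0.47. Every pair of the same number was over 0.1, and the numbers were taken as paired in the fit with the replicate block only. The p-values of the main fit leave any pairing out. Deviations cancel within a group of 3, and no label says what the numbers share. The sources used here do not say whether samples came from separate animals or cultures, so the p-values reflect only the spread of these libraries. Figures were drawn with matplotlib 3.10.9.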

Additional observations from a re-analysis of the deposited data

How the results depend on the processing

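No alternative turned the sign of the median log2 fold change or of the differences in share of counts, in level or in percent called at like FPKM. In percent called higher alone, long minus shorter genes turned with the replicate block (21.9% and 22.6%). The number of long genes called lower moved from 90 (25%) to 151 (41.9%) with the replicate block, while lower calls over all features tested moved from 11.2% to 21.0%. It lay between 50 (13.9%) and 93 (25.8%) when 1 library was left out, against 6.26% and 10.8% of all features in the same fits. Without 1 library 109 to 154 long genes were called, and 51 to 67 were called higher. Calls over all features moved as well, to 18.8% to 30.1% of those tested, and higher calls to 12.3% to 18.7%. In the main fit these were 30.1% and 18.9%. Without 1 library the median log2 fold change was -0.47 to -0.16 and the difference in percent called at like FPKM 12.1 to 20.5 points. The difference in share of counts was then -3.84 to -3.20 points and the difference in level -0.32 to -0.05. The median of -0.33 became -0.17 with library totals, -0.19 with limma on log2(FPKM + 0.1) and -0.13 on log2(FPKM + 1). The difference in percent called of 19.0 points became 12.9 with the libraries of the study and 13.5 with limma on log2(FPKM + 1). With genes of at least 15000 bp alone, 27 were called, 15 higher (24.6%) and 12 lower (19.7%), against 18.9% and 11.2% of all features tested. The median of these genes was -0.20 and their share differed by -1.21 points, over fewer genes. At the thresholds of the study 75 of the 360 long genes were called, 43 higher (11.9%) and 32 lower (8.89%), against 14.1% and 6.18% of all features tested. The replicate block changed no call of the 4 named genes. The causes of these changes were not tested. Depth limits the rarest long genes, of which 19 had fewer than 10 counts in some library.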
